A study of Drosophila melanogaster with 48 samples.

Results

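The Enhancer of split complex, E(spl)-C, is a cluster of small genes on chromosome arm 3R of Drosophila melanogaster. It was examined here through 10 of its genes, treated as 1 locus among 17684 annotated genes on the 6 chromosome arms analysed. The members are 7 HLH genes, E(spl)mdelta-HLH, E(spl)mgamma-HLH, E(spl)mbeta-HLH, E(spl)m3-HLH, E(spl)m5-HLH, E(spl)m7-HLH and E(spl)m8-HLH, and 3 BFM genes, E(spl)malpha-BFM, E(spl)m2-BFM and E(spl)m4-BFM. The window follows from the positions of these genes, which were chosen with earlier results of these data known. It runs from the first to the last member, a span of 43.4 kb, plus 5 kb on each side (dm6, 3R, 25992621 to 26046008, 53.4 kb). All binding sites of Zelda (Zld) whose summit lay in it were taken from 2 deposited peak lists, 1 per condition. They hold 17 of 7644 peaks in the first and 23 of 9065 in the second.

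The E(spl) genes are classic targets of Notch signalling. On activation, the cleaved Notch receptor joins the DNA-binding protein Su(H) and switches them on directly. The HLH proteins are basic helix-loop-helix repressors that recruit the corepressor Groucho, the product of the adjoining gene gro, and silence proneural genes. The BFM proteins belong to the Bearded family, and E(spl)malpha-BFM and E(spl)m4-BFM bind the ubiquitin ligase Neuralized and inhibit it. In the larval brain, Notch signalling maintains neural stem cells, the neuroblasts, and E(spl)mgamma-HLH is widely used there as a marker of Notch activity. Zld is a pioneer factor that binds closed chromatin and opens it in the early embryo.

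The series holds 48 CUT&RUN samples, in which fragments of DNA are cut out around an antibody-bound protein and counted where they pile up. The values here come from brains of L3 larvae treated with anti-Zld antibody, and 2 replicates were made in each of 2 conditions. The first is titled brat, after the translational repressor whose loss lets type II neuroblasts accumulate, and the second is titled UAS-HA-Zld, after an HA-tagged Zld driven by Gal4. The genotype label is identical for all 4 samples. It gives brat11 over a deficiency, a temperature-sensitive Gal80 under the Tub promoter (Tub-Gal80ts), which blocks Gal4 at low temperature, UAS-HA-Zld and WorGal4, a Gal4 line active in neuroblasts. The conditions therefore differ by their titles only. Whether the samples titled brat lacked an active transgene could not be read from the labels. Larvae were kept at 18°C up to L3 and then spent 24 h at 33°C. The label names type II neuroblasts, but 50 brains went into each reaction, and peak lists hold no expression with which to check the cell type. The brain IgG samples and the S2 cell samples were not analysed here.

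Each list gives the authors' fold enrichment and p-value at every summit, and together they fix the number of fragments piled up there and the local background. Pileups came out whole for 100% of summits in both lists. To allow for coverage, the lowest background of each list was used: 28.8 fragments in UAS-HA-Zld over 22.6 in brat, a ratio of 1.28. A scaled ratio below is the UAS-HA-Zld pileup over the brat pileup divided by this 1.28. All 95% intervals below, of ratios and of percentages, are exact binomial and cover counting error only. Distances from genes are those of the UAS-HA-Zld summit unless stated, measured to the nearer gene end. With 1 list per condition, no difference could be set against the spread between replicates and no test was made.

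Zld peaks were dense along the complex in both conditions, and the complex was more heavily occupied in the UAS-HA-Zld list. All 17 brat peaks of the window shared bases with a UAS-HA-Zld peak, 100% (exact 95% interval 80.5 to 100), where 78.1% of all brat peaks did so. Of the 23 UAS-HA-Zld peaks, 17 were shared, 73.9% (51.6 to 89.8), where 67.1% of all peaks of that list were, and 6 had no brat peak. Both intervals treat neighbouring peaks of 1 locus as independent, and the differences from the whole lists were not tested. The brat peaks covered 14.1 kb of the window, 26.4% of its length, and the UAS-HA-Zld peaks 21.9 kb, 41.0%. Over the part of 3R spanned by the lists, peaks covered 3.80% and 4.70%. The window held 3.18 brat peaks per 10 kb against 0.535 on the whole arm, and 4.31 UAS-HA-Zld peaks per 10 kb against 0.656. Those peaks held 30 summits in brat and 48 in the other list. More than 1 summit was found in 8 brat peaks, 47.1%, near the 46.1% of the whole brat list. In UAS-HA-Zld 13 peaks had more than 1, 56.5%, against 46.9% of that whole list.

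**Figure D1:**
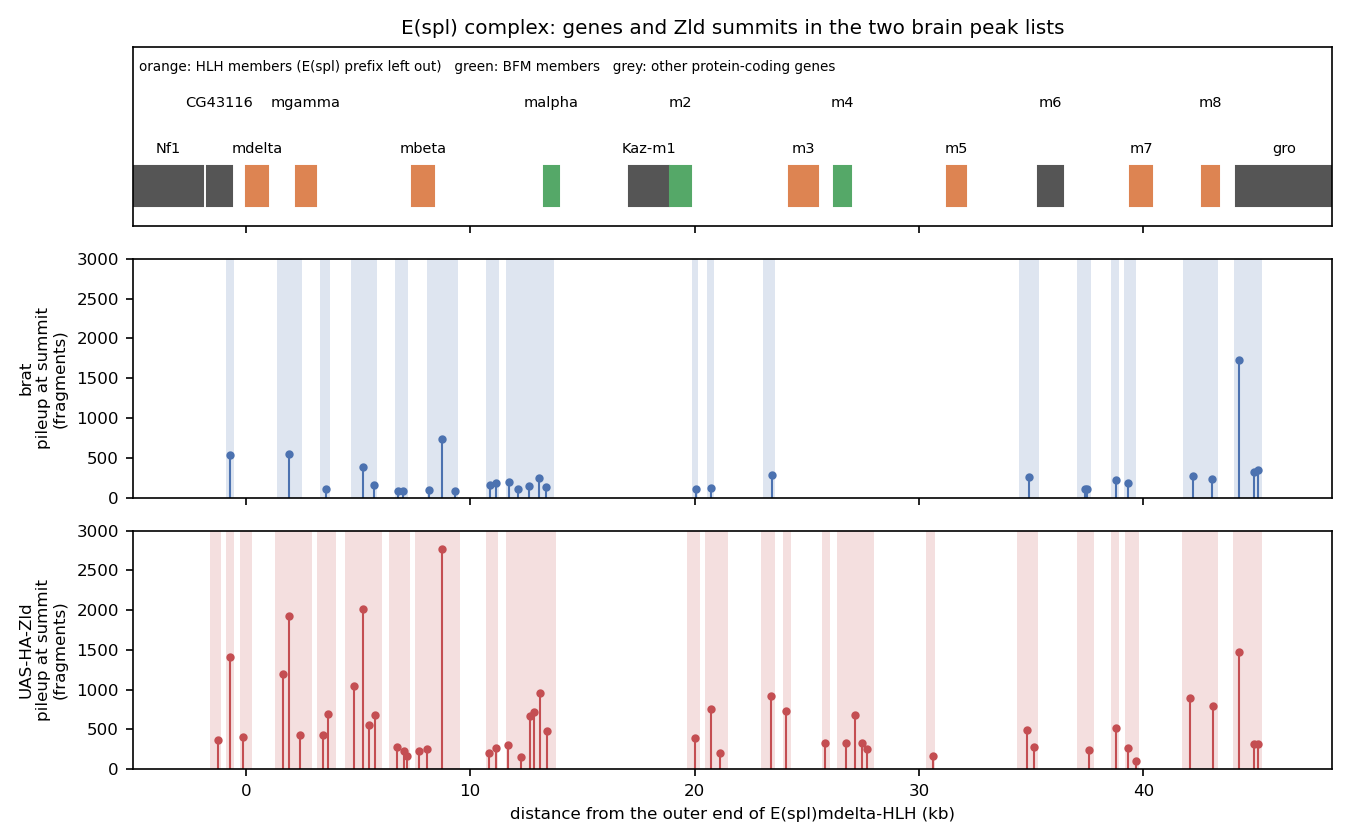
Protein-coding genes of the window (upper strip) and pileup in fragments at every Zld summit (points with stems) in the brat list (middle) and the UAS-HA-Zld list (lower), against distance in kb from the outer end of E(spl)mdelta-HLH; shaded bars mark peak intervals. The tallest brat summit stands in gro with 1726 fragments, and the tallest UAS-HA-Zld summit beside E(spl)mbeta-HLH with 2772.

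The shared sites had higher pileups in UAS-HA-Zld, apart from the one in gro. Summed over the 17 shared peaks, the strongest summits of brat held 6086 fragments and those of UAS-HA-Zld 16239, a ratio of 2.67 (95% interval 2.59 to 2.75) and a scaled ratio of 2.09 (2.03 to 2.15). Over all 5857 shared peaks of the lists the summed scaled ratio was 1.04. The median scaled ratio in the window was 2.60, against 1.05 over all shared peaks. Of the 17 peaks, 16 had a scaled ratio above 1 and also above 1.05, the median of all shared peaks. A scaled ratio of at least 2 was found at 11 of the 17, and at 14.0% of all shared peaks. None of the 17 was at or below 0.5, where 8.35% of all shared peaks lay. Among the 1336 shared peaks of 3R the share at 2 or above was 16.8%, and among the 5405 shared peaks whose brat pileup fell in the range of the window, 82 to 1726 fragments, it was 13.1%. The local background was 1.23 to 1.94 times higher in UAS-HA-Zld at these peaks, with a median of 1.51, and 1.45 at the median over all shared peaks. The strongest summits of the 2 lists lay within 50 bp of each other at 13 of the 17 peaks, and 284 bp apart at most. In 16 of the 17 the UAS-HA-Zld peak was the wider. Median widths of all peaks were 605 bp in brat and 754 bp in UAS-HA-Zld in the window, and 574 and 549 bp over the whole lists. How many of all shared peaks had summits this close, or a wider UAS-HA-Zld peak, was not counted.

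**Figure D2:**
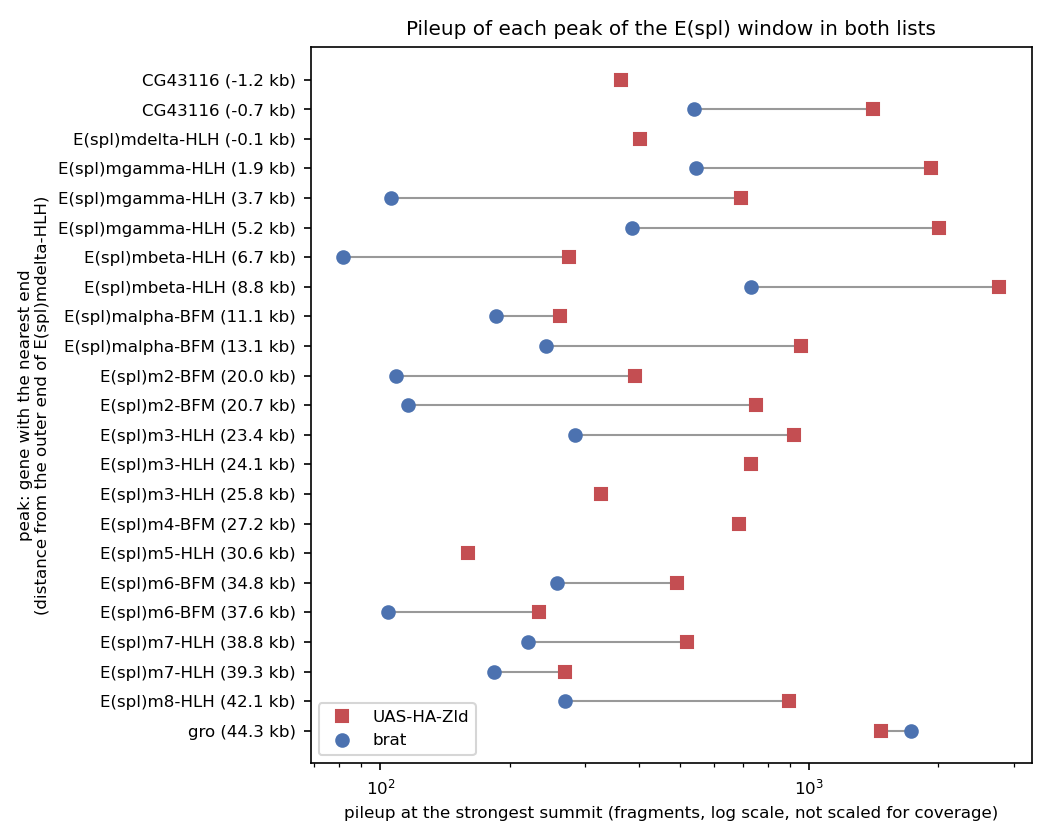
Pileup at the strongest summit of each of the 23 peak positions of the window in the brat list (circles) and the UAS-HA-Zld list (squares), on a log axis and not scaled for coverage, from the mdelta end (top) to gro (bottom). The square lies to the right of the circle at 16 of 17 shared positions, and 6 positions have a square only.

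The HLH genes mdelta, mgamma and mbeta, at one end of the complex, carried its highest UAS-HA-Zld pileups. E(spl)mdelta-HLH (3R, 25997621 to 25998633), a target known from photoreceptor R4 of the eye, and E(spl)mgamma-HLH (25999851 to 26000761) share the peak between them, which reached 1925 fragments in UAS-HA-Zld from a brat pileup of 544. Its scaled ratio was 2.77 (2.52 to 3.06), and its UAS-HA-Zld summit lay 306 bp from the nearer end of mgamma. On the other side of mgamma a weak brat peak of 106 fragments stood against 692 at a summit 525 bp from the gene, inside lncRNA:CR45037. This was the highest scaled ratio of the window at 5.12 (4.16 to 6.34). A further peak, 2.08 kb beyond mgamma (UAS-HA-Zld summit at 26002846), held 385 and 2009 fragments, a scaled ratio of 4.09 (3.66 to 4.57). It had the highest fold enrichment of the window in the authors' UAS-HA-Zld list, 16.4.

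E(spl)mbeta-HLH (26005046 to 26006023), whose regulatory DNA serves as a Notch reporter in the wing disc, had the tallest UAS-HA-Zld summit of the complex. It lay 348 bp from the gene and held 2772 fragments, against 731 at the brat summit 13 bp away, a scaled ratio of 2.97 (2.74 to 3.23). By −log10 q in the authors' deposited table this peak was 43rd of 9065 in the UAS-HA-Zld list and 1149th of 7644 in the brat list, ranks that hold only within each list. On the other side of mbeta, in lncRNA:CR45038, pileups of 82 and 275 fragments gave 2.63 (2.05 to 3.41), from summits 284 bp apart. Outside the first member, a site in CG43116 held 537 and 1404 fragments, a scaled ratio of 2.05 (1.85 to 2.27).

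The BFM genes showed the same direction at most of their sites. E(spl)malpha-BFM (26010893 to 26011568) is overlapped by a peak that has 5 summits in the brat list and 6 in the other, whose strongest summits held 243 and 958 fragments, 3.09 scaled (2.68 to 3.57). A second peak 2.14 kb away held 186 and 262 fragments, a scaled ratio of 1.10 (0.91 to 1.34), an interval that spans 1. The strongest summits of this peak were on the same base in both lists. Near E(spl)m2-BFM (26016514 to 26017470), pileups of 109 and 393 fragments at 187 bp gave 2.83 (2.28 to 3.53), and 116 and 753 fragments at 872 bp, in lncRNA:CR43643, gave 5.09 (4.18 to 6.24). E(spl)m4-BFM (26023821 to 26024579) had no brat peak inside it or within 2 kb, the nearest brat summit being 2.77 kb away. In UAS-HA-Zld it had 2 peaks, of which the stronger (26023972 to 26025606) had 4 summits, 1 of them inside the gene with 323 fragments and the highest, 208 bp outside it, with 684.

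Of the 6 peaks without a brat peak, 4 lay in the middle of the complex, from E(spl)m3-HLH to E(spl)m5-HLH. The longest stretch of the window without a brat peak, 10.8 kb from 26021226 to 26032060, covers m3, m4 and m5. It held 4 UAS-HA-Zld-only peaks. Besides the one at m4, these reached 731 fragments 120 bp from E(spl)m3-HLH (26021823 to 26023127), 327 fragments 307 bp from its other end, and 160 fragments 629 bp from E(spl)m5-HLH (26028854 to 26029735). The last was the weakest of the window in that list, with a fold enrichment of 2.66. The shared peak of m3, 797 bp away in lncRNA:CR43644, held 284 and 919 fragments, 2.54 scaled (2.22 to 2.91). The other 2 UAS-HA-Zld-only peaks lay 135 bp from mdelta with 402 fragments and in CG43116 with 363. Fold enrichment in the authors' list was 2.66 to 10.8 for the 6 peaks, and 5 of the 6 exceeded 2.94, the median of all 2980 UAS-HA-Zld-only peaks. Peaks are numbered along the genome, and each list as analysed here lacks 19.5% of its numbers. Between the brat peaks on either side of m3 to m5, 2 numbers were absent for 4 UAS-HA-Zld-only peaks, and 1 was absent beside the peak at mdelta. Beside the peak in CG43116 none was absent. Whether brat peaks were called at the other 5 was therefore not established, and their part in the difference was not tested.

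Kaz-m1, E(spl)m6-BFM and gro, which lie among or beside the members, had 6 shared peaks within 2 kb. Their median scaled ratio was 2.18, and 3 reached 2 (50%, against 14.0% of all shared peaks). All 3 are also peaks of members. Those of Kaz-m1, a gene for a Kazal-type protease inhibitor, are the peaks of m2. The third is the peak of m8, which also lies within 2 kb of gro. Towards gro the ratios were lower. E(spl)m6-BFM, which lies in the window but is not among the 10 members, had peaks of 258 and 492 fragments (1.49, 1.28 to 1.74) and 104 and 234 fragments (1.76, 1.39 to 2.24). E(spl)m7-HLH (26037038 to 26038019) had pileups of 221 and 519 fragments at 623 bp, 1.84 scaled (1.57 to 2.16). Closer to the gene, at 94 bp, they were 184 and 269, 1.15 (0.95 to 1.39), an interval that spans 1. E(spl)m8-HLH (26040240 to 26041008), the gene altered in the dominant E(spl)D allele, had 270 and 897 fragments at its own peak, 2.60 (2.27 to 2.99). Inside m8 a summit of 238 fragments in brat stood against 793 in UAS-HA-Zld. Over 3 stretches drawn after the values were seen, the median scaled ratio was 2.87 over 8 peaks up to malpha, 2.83 over 3 peaks from m2 to m5, and 1.63 over 6 peaks from m6 to gro.

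The 1 shared peak that was lower in UAS-HA-Zld was the strongest brat peak of the window. Its summit lies inside gro, 142 bp from the gene end that faces m8 and 870 bp from m8 itself in the UAS-HA-Zld list, so it counts for m8 only through the distance of 2 kb. It held 1726 fragments in brat, where it ranked 80th of 7644 by −log10 q in the authors' deposited table, and 1466 in UAS-HA-Zld, a scaled ratio of 0.67 (0.62 to 0.71). Among all shared peaks, 19.1% had a lower ratio. Without it the summed scaled ratio of the other 16 peaks was 2.66 (2.57 to 2.75).

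**Figure D3:**
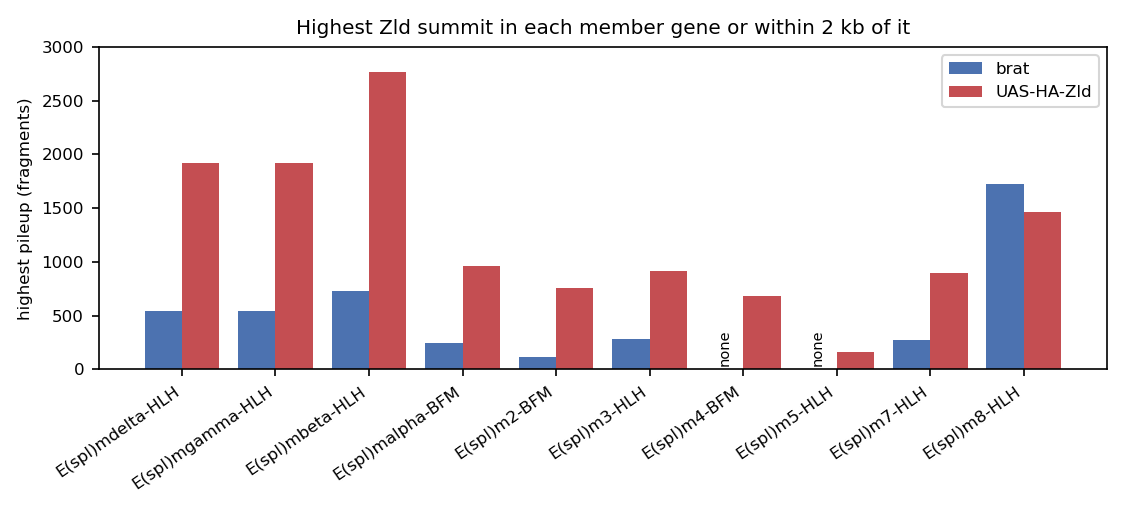
Highest pileup in fragments, not scaled for coverage, among summits inside each member gene or within 2 kb of it, in brat (blue) and UAS-HA-Zld (red), in order along the chromosome; mdelta and mgamma share a summit. E(spl)m4-BFM and E(spl)m5-HLH have no brat summit, and the bars of E(spl)m8-HLH, 1726 and 1466, are those of the peak in gro.

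Counted by gene, 8 of the 10 members had a brat peak inside them or within 2 kb, 6 of 7 HLH and 2 of 3 BFM genes, and all 10 had a UAS-HA-Zld peak. Over all 13922 protein-coding genes the shares were 43.4% and 43.1%. A UAS-HA-Zld-only peak lay at 4 members, mdelta, m3, m4 and m5, against 15.6% of protein-coding genes. No member had a brat-only peak, but the share of all protein-coding genes with a brat-only peak was not counted. Because the genes lie close together, a single peak was often counted at more than 1 member. The highest summit per member had a scaled ratio of 2.54 to 5.09 at 7 of the 8 members with a summit in both lists. At m8 it was the 0.67 of the peak in gro, and at m7 the highest summit was that of the m8 peak.

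None of the strongest summits of the peaks lay inside a member, while 8 of 17 in brat and 9 of 23 in UAS-HA-Zld lay within 500 bp of one. How much of the window lies that close to a member was not measured. Counting every summit, 3 of 30 in brat fell inside a member, in mbeta, malpha and m8. In UAS-HA-Zld 7 of 48 did so, in mgamma, mbeta (2 summits), malpha, m4, m7 and m8. These are 10% and 14.6% of the summits, while the members make up 17.3% of the window's length. The strongest summits in CG43116 and gro lie inside those genes. The summits in malpha, at 26011018 in the brat list and 26011068 in the other, held 129 and 474 fragments. The gene table gives neither exons nor strand, and the start of a gene was not told from its end.

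**Figure D4:**
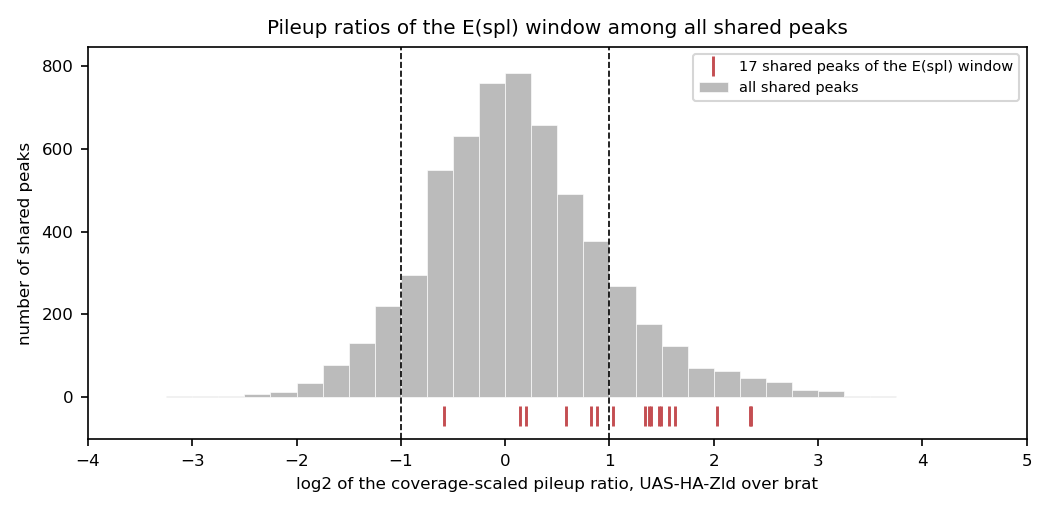
Number of shared peaks (grey bars) by log2 of the coverage-scaled pileup ratio, UAS-HA-Zld over brat, for all 5857 shared peaks, with the 17 of the window as ticks below and dashed lines at ratios of 0.5 and 2. Of the ticks, 11 lie at or beyond the right line, where 14.0% of all shared peaks lie.

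The shared peaks of core Notch genes had a median ratio near that of the whole lists. Of 16 core Notch genes listed, 15 were found in the gene table, from a ligand to secretase subunits, and Dl was not. Of these 15, 12 carried a brat peak and 14 one of UAS-HA-Zld, against 43.4% and 43.1% of all protein-coding genes. A brat-only peak lay at 5 of them and a UAS-HA-Zld-only peak at 9, the latter against 15.6% of protein-coding genes. For brat-only peaks that share was not counted, so the 5 cannot be set against it. Their 45 shared peaks had a median scaled ratio of 1.06. Of these, 2 reached 2 (4.44%), below the 14.0% of all shared peaks, and 2 lay at or below 0.5, where 8.35% of all shared peaks lay. The receptor gene N had highest pileups of 1909 and 1568 fragments, and numb, an inhibitor of Notch, 800 and 1022. Nct and aph-1, which encode parts of gamma-secretase, had peaks in the UAS-HA-Zld list only, with 163 and 265 fragments. All 6 genes of a list of HES-family repressors outside the members, with gro, had a peak in both lists, beside those 43.4% and 43.1%. Of their 9 shared peaks, with a median scaled ratio of 1.07, 3 reached 2 (33.3%, against 14.0% of all shared peaks). Of these 3, 1 is the peak of m8, which also lies within 2 kb of gro. Apart from gro, the strongest by −log10 q in the brat list was dpn, a HES-type repressor of neuroblasts, with 2257 and 2132 fragments. The pair-rule gene hairy, listed as hry, was chosen after its values were seen. It held 168 and 1143 fragments, a scaled ratio of 5.33.

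Bearded-family genes outside the complex also had higher pileups in UAS-HA-Zld, from few peaks. Of 4 found, all on 3L, 3 had a peak in the brat list and 4 in the other, against 43.4% and 43.1% of all protein-coding genes. Both of their shared peaks were at least 2 times higher, against 14.0% of all shared peaks, with a median scaled ratio of 3.98. Brd and Ocho share the strongest, whose strongest summits held 180 and 929 fragments, and BobA had a UAS-HA-Zld peak only, with 252. Of 6 genes for proneural proteins and their partner, 4 had a peak in the brat list and all 6 in the other, beside the same 43.4% and 43.1%. Their 7 shared peaks had a median scaled ratio of 0.963. Of these, 2 reached 2, 1 at sc and 1 at l(1)sc, and 3, all at da, were at 0.5 or below. Of all shared peaks, 14.0% and 8.35% did so. Highest pileups were 583 and 220 fragments at da, the common partner of the proneural proteins, and 437 and 826 at ase. ac and ato had peaks in the UAS-HA-Zld list only, of 398 and 773 fragments. These comparisons between lists were not tested.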

How the data were processed

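The series applied CUT&RUN to cultured S2 cells and to larval brains. The 2 peak lists analysed here are for brain samples with anti-Zld, 1 per condition of 2 replicates, and were assigned to groups by the sample titles. The build dm6 and the tools Bowtie2, MACS2 and deepTools 3.5.1 are named, per the submitters' processing notes. The sources used here give no settings, control or statement on pooling. The deposited lists hold an integer score, the fold enrichment (a ratio of pileup plus 1 to background plus 1), −log10 values of a p-value and its q-value, and the summit position. The smallest −log10 q in the authors' deposited table was 1.31 in brat and 1.30 in UAS-HA-Zld.

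Pileup and background were solved from fold and −log10 p under the Poisson tail of MACS2, with a relative tolerance of 0.0001 for whole numbers, and the solver was tested on simulated data. A peak was 1 distinct interval, placed by its summit with the highest −log10 q. Peaks sharing at least 1 bp were matched, and pileup ratios use each peak once, paired by the nearest summits. Fragments may include PCR duplicates. Genes came from a RefSeq table of the same assembly (Release 6 plus ISO1 MT). A planned search for motifs in promoters and a comparison of member proteins were not run, because no sequence was used here. The members, lists and alternatives were chosen with earlier results of these data known, and the threshold of 2 for the scaled ratio was set after the lists were seen. All peaks of the window and all members are described. From the other lists, genes with a peak in 1 list only and the 2 strongest in brat by −log10 q are named, besides hairy, sc and l(1)sc. Python 3.11.15 with numpy 2.4.6, scipy 1.17.1 and pandas 2.3.3 was used. Alternatives were stricter −log10 q, equal list lengths, other padding, matching, gene distances, scaling and units.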

Additional observations from a re-analysis of the deposited data

How the results depend on the processing

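The summed pileup ratio of shared peaks was 2.67 unscaled as reported, where all shared peaks of the lists gave 1.33. It ranged from 2.51 to 3.50 under the alternatives that left it unscaled. Divided by the ratio of lowest backgrounds it was 2.09, against 1.04 over all shared peaks. Divided by the summed ratio of all shared peaks it was 2.01. Unscaled, it was 3.50 without padding, 2.58 with 50% overlap of both peaks and 2.51 without the strongest shared peak. It was 2.55 over 26 summit pairs within 100 bp and 3.39 without the peak in gro, also unscaled. Of 17 shared peaks, 11 had a scaled ratio of at least 2; with a threshold of 3 there were 4. With summits as the unit, counts were 30 in brat and 48 in UAS-HA-Zld, with 29 and 30 of them within 200 bp of a summit of the other list. Counting only summits inside genes left 3 members in the brat list and 6 in the other. With a distance of 5 kb all 10 members had a peak in both lists, so that the difference of 8 against 10 was no longer seen. The shares of all protein-coding genes were counted at 2 kb only, so these changed counts have no share beside them. Of the 6 UAS-HA-Zld-only peaks, 1 had no absent brat number beside it. Other alternatives moved no count by more than 1.5 times. The padding takes in the peaks in gro and CG43116. No paired analysis was possible because there is 1 list per condition, and no replicate could be left out. For 2 shared peaks, with ratios of 1.10 and 1.15, the counting interval of the scaled ratio spans 1. This interval leaves out the spread between replicates, so it does not establish a difference at the other shared peaks either.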
